A study of Homo sapiens with 16 samples.

Results

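CFTR, SLC26A3, SLC26A6, SLC12A2, SLC4A4, SLC9A3R1, CA2, CA12 and GUCY2C, genes of intestinal chloride and bicarbonate transport, were followed through the 4 groups of an RNA sequencing experiment on colorectal cancer cells. The 9 genes were selected on function, with the itraconazole responses already known, among them the rise of SLC26A3 in HT55 and the fall of CFTR in SW948. They were matched by symbol to 9 of the 54127 gene identifiers in the count files, SLC9A3R1 under its newer symbol NHERF1. Because the responses were in view, the values of these genes under itraconazole are a description and no test of these genes. The word called marks only that a gene was under the adjusted p of 0.05 used for the whole table. HT55 and SW948, both established human colorectal cancer lines, were grown adherent in serum and given itraconazole, an antifungal drug, at 5 µM or its solvent DMSO, and RNA was taken on day 6. Both lines were given both treatments, and each of the 4 groups holds 4 libraries, described in the study as biological quadruplicates. Each line is 1 cell population kept in culture, so the libraries of a group repeat a line and not a tumour.

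The gut epithelium absorbs chloride in exchange for bicarbonate and, in crypts, secretes chloride with water behind it. For secretion the basolateral cotransporter encoded by SLC12A2 loads the cell with chloride, which leaves through CFTR, the apical chloride channel opened after phosphorylation by kinases that cyclic nucleotides switch on. For absorption SLC26A3, the gene of congenital chloride diarrhoea, and its relative SLC26A6 exchange luminal chloride for bicarbonate. Carbonic anhydrases such as CA2 and CA12 make bicarbonate from carbon dioxide, and SLC4A4 can bring it in from the blood side. GUCY2C, the receptor of guanylin and of heat-stable enterotoxin, raises cyclic GMP, and the scaffold SLC9A3R1 holds apical transporters in place.

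Promoter sequence is shown for SLC26A3 and CFTR, the members with the largest responses in HT55 and in SW948. Both stretches are the 250 bases before the RefSeq start site on GRCh38.p14, 5′ to 3′ on the gene's strand, chr7:107803224-107803473 on the minus strand for SLC26A3 and chr7:117479775-117480024 on the plus strand for CFTR. Capitals mark matches on either strand to TATAAA or GGGCGG or GTTAAT or TTTATG, and no matches overlapped in these stretches.
SLC26A3: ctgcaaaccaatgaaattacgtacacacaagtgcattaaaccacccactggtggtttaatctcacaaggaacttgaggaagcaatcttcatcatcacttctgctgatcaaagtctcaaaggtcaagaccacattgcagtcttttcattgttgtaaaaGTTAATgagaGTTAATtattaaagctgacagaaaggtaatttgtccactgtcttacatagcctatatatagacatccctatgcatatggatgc
CFTR: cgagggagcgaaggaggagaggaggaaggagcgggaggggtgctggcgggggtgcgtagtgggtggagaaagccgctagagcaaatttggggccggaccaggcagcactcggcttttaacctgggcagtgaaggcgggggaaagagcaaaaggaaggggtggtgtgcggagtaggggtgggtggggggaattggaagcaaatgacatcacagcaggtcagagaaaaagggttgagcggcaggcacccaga
SLC26A3 held 2 copies of GTTAAT and none of the other letters, in a stretch of 37.6% GC. CFTR held none of the 4, in a stretch of 61.2% GC. Among 35116 RefSeq promoters of the same length, GTTAAT occurred in 6.23%, TTTATG in 9.64%, TATAAA in 10.7% and GGGCGG in 42.6%, and the median GC content was 58%. Promoters of 7 of the 9 genes were read, since GUCY2C had no entry and CA2 was left out. GGGCGG occurred in those of SLC12A2 (3 copies) and SLC9A3R1 (4 copies) and in some of the alternative promoters of SLC26A6 and SLC4A4. TTTATG occurred in that of CA12 (1 copy) and in an alternative promoter of SLC4A4 (1 copy). These matches describe letters only.

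Gene counts per library ran from 8269406 to 11110814. All 8 intestinal epithelial markers were detected in every group, with a summed level of 5422 to 9834 CPM (counts per 1000000 gene counts, on library totals scaled by the TMM method). In SW948 with itraconazole 4 of the 8 were called higher and 4 lower, namely CDH1, VIL1, CDX1 and CDX2. Of all genes there 38.9% rose and 41.3% fell. In HT55 4 of the 8 were called higher, where 27.5% of all genes rose. Fibroblast and endothelial marker lists summed to at most 11.6 and 0.712 CPM. Of 5 immune markers PTPRC and CD3E were at or near 0, and LYZ, also made by gut epithelium, was at 318 ± 25.9 CPM (SD) in SW948 with DMSO and 110 ± 11.8 CPM with itraconazole. Absorptive colonocyte markers summed to between 234.8 and 249.0 CPM in HT55 with DMSO and 400.4 to 617 CPM with itraconazole. In SW948 they summed to 649 to 684 and 794 to 951 CPM. These sums were mostly KRT20, while CA1, CA4, AQP8 and MS4A12 stayed under 1 CPM in every group mean. In HT55 KRT20 went from 184 to 405.5 CPM, FABP1 from 34.9 to 66.6 CPM and SLC26A2 from 12.7 to 33.9 CPM. There CEACAM7 went from 1.63 to 6.54 CPM and GUCA2A from 7.05 to 8.33 CPM, the last not called. In SW948 KRT20 went from 660 to 874 CPM and CEACAM7 from 1.53 to 2.2 CPM. There FABP1 went from 2.91 to 0.434 CPM and SLC26A2 from 8.1 to 2.4 CPM. Goblet markers, mostly TFF3 in HT55, summed to 49.1 to 54.7 CPM in HT55 with DMSO, 14.03 to 25.2 CPM with itraconazole, and in SW948 26.9 to 35.4 and 24.4 to 27.3 CPM. In SW948 TFF3 went from 17.0 to 2.24 CPM and MUC2 from 14.1 to 23.3 CPM. BEST4 cell markers summed to at most 1.74 CPM. The part of these lists in the values that follow was not tested. Along the average drug response, placed at 0 for DMSO and 1 for itraconazole from the other libraries of the line, replicate 3 of HT55 with itraconazole lay at 0.618 and replicate 1 of SW948 with itraconazole at 0.838, against 0.9 to 1.1 in the remaining treated libraries. Replicate 3 of SW948 with DMSO held 255 counts over 40 genes that were high in HT55 and nearly silent in its 3 fellow libraries, which held 83 to 105. The genes for that comparison were defined by limits loosened after stricter ones had left 6 genes. Those 6 gave 16 counts in the same library.

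**Figure D1:**
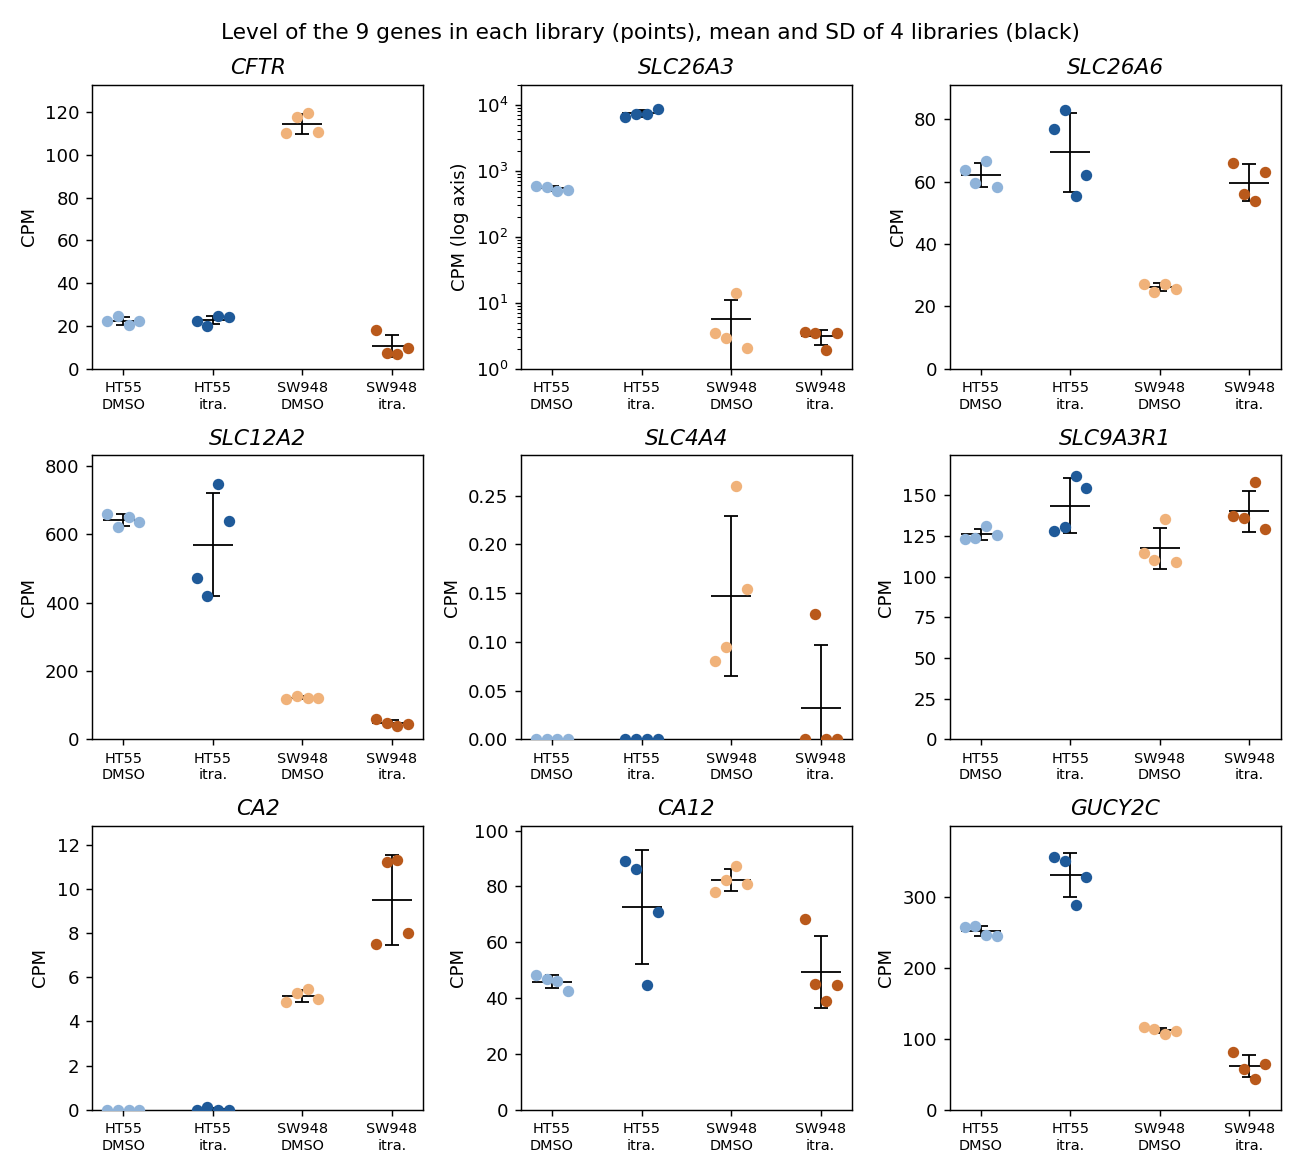
Level of each gene (CPM, y axis) in each of 16 libraries (points) by line and treatment, with the mean and SD of 4 libraries in black. The SLC26A3 axis is logarithmic and its lower SD bar for SW948 with DMSO runs off the axis. SLC26A3 reached 6597 to 8701 CPM in HT55 with itraconazole, while CFTR was highest in SW948 with DMSO.

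SLC26A3, the apical chloride and bicarbonate exchanger (chr7:107405912-107443670, minus strand, GRCh37, as for every gene position that follows), reached the highest level of the 9. In HT55 with DMSO its libraries stood at 598, 573, 500.2 and 520 CPM. With itraconazole they stood at 6597, 7152, 7258 and 8701 CPM. Every treated library lay above every control, and the log2 fold change was 3.76 ± 0.11 (SE), a fold of 13.5 and the 14th highest of 12133 genes tested. The mean of 7427 ± 898 CPM (SD) was 0.676% of all gene counts and the second highest among 19012 protein-coding genes. In bulk RNA, a change in the share of cells with a transcript and a change in the RNA per cell cannot be told apart.

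In SW948 the same gene was barely detected. Its DMSO libraries held 43, 31, 161 and 27 counts, that is 3.45, 2.93, 13.96 and 2.08 CPM, and those with itraconazole 36, 27, 15 and 31 counts, that is 3.60, 3.48, 1.91 and 3.50 CPM. The groups overlapped, and replicate 3 with DMSO, the highest, was the library with more counts from genes of HT55. Whether those counts bear on its SLC26A3 value was not tested. The log2 fold change was -0.85 ± 0.52, which was not called, and it was 0.12 without that library. Without replicate 4 with DMSO it was -1.14 and called.

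CFTR, the apical chloride channel (chr7:116927174-117356025, plus strand), moved in the other line. In SW948 its DMSO libraries stood at 110.3, 117, 119 and 110.4 CPM. With itraconazole they stood at 18.01, 7.47, 6.87 and 9.71 CPM, the highest being the replicate that lay least far along the drug response. No treated library came near a control, and the log2 fold change was -3.44 ± 0.19, a fold of 10.8, with -3.84 to -3.28 when single libraries were left out. In HT55 the 4 DMSO libraries ran from 20.3 to 24.6 CPM and the 4 treated ones from 20.1 to 24.6 CPM. The groups overlapped, with a log2 fold change of 0.03 ± 0.10 whose sign changed when either replicate 3 was left out. Exons of CFTR overlap those of CTTNBP2 on the opposite strand by 51 bases, 0.303% of its exon length, and whether strand was kept in counting is not given in the sources used here.

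SLC12A2, the sodium, potassium and chloride cotransporter that feeds secretion (chr5:127419458-127525369, plus strand), fell with CFTR in SW948. Its libraries stood at 117, 128, 121 and 120 CPM with DMSO and at 59.1, 46.5, 40.04 and 44.2 CPM with itraconazole. The groups lay apart, with a log2 fold change of -1.38 ± 0.10. In HT55 it stood at 661, 621, 651 and 635 CPM with DMSO and at 473, 420, 749 and 638 CPM with itraconazole. Those groups overlapped and the log2 fold change of -0.18 ± 0.15 was not called. Without replicate 3 of the treated libraries, the one at 749 CPM, it was -0.32 and called.

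SLC26A6, the other apical exchanger (chr3:48663156-48672926, minus strand), rose in SW948. Its libraries went from 27.2, 24.5, 27.2 and 25.6 CPM with DMSO to 66.0, 55.9, 53.7 and 63.1 CPM with itraconazole. The groups did not overlap and the log2 fold change was 1.16 ± 0.08. In HT55 it stood at 58.3 to 66.5 CPM with DMSO and 55.5 to 82.9 CPM with itraconazole, an overlap, with a log2 fold change of 0.15 ± 0.12 that was not called. Without treated replicate 3 it was 0.26 and called.

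GUCY2C (chr12:14765566-14849533, minus strand) moved in opposite directions in the lines. In HT55 it stood at 257, 258, 245 and 245 CPM with DMSO and at 356, 350.3, 289 and 327 CPM with itraconazole. In SW948 it stood at 116, 113, 107 and 111 CPM with DMSO and at 81.3, 57.0, 43.7 and 64.4 CPM with itraconazole. Neither line had overlapping groups, and the log2 fold changes were 0.39 ± 0.07 and -0.89 ± 0.13. Of its exon length 12.3% overlaps PLBD1-AS1 on the opposite strand, a gene with 7 to 74 counts per group, so that a part of that size cannot be told apart.

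The carbonic anhydrases differed from each other. CA12, the membrane enzyme facing outward (chr15:63613577-63674045, minus strand), stood in HT55 at 48.5, 46.7, 46.0 and 42.7 CPM with DMSO and at 89.1, 86.2, 44.6 and 71.0 CPM with itraconazole. Treated replicate 3 lay among the controls and the other 3 above them, and the log2 fold change of 0.65 ± 0.18 was called. In SW948 CA12 went from 78.2, 82.4, 87.5 and 81.0 CPM to 68.4, 45.1, 39.2 and 44.8 CPM, without overlap and with a log2 fold change of -0.76 ± 0.13. CA2, the cytosolic enzyme (chr8:86376197-86393722, plus strand), had no count in HT55 with DMSO and 1 count in all with itraconazole. In SW948 it stood at 4.89, 5.29, 5.46 and 5.00 CPM with DMSO and at 7.50, 11.2, 11.3 and 8.02 CPM with itraconazole, a log2 fold change of 0.84 ± 0.16 on groups that did not overlap.

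SLC9A3R1 (chr17:72744767-72765492, plus strand) had the narrowest range of group means among the members tested in both lines. In HT55 it ran from 123 to 131 CPM with DMSO and from 128 to 162 CPM with itraconazole, a log2 fold change of 0.19 ± 0.08 that was not called, though it was called at 0.24 and 0.23 without treated replicates 1 and 2. In SW948 it ran from 109 to 136 CPM with DMSO and from 129 to 158 CPM with itraconazole. There the groups overlapped, the log2 fold change of 0.22 ± 0.08 was called, and it was no longer called without DMSO replicate 1 (0.21), 2 (0.19) or 4 (0.18) or treated replicate 3 (0.16). Its sign also turned with plain library totals, to -0.11. SLC4A4, the basolateral sodium and bicarbonate cotransporter (chr4:71928384-72437804, plus strand), had no count in HT55, 7 counts in SW948 with DMSO and 1 with itraconazole. It was too low to be tested anywhere.

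Counted over the members, 3 of 7 tested in HT55 were called higher with itraconazole (SLC26A3, CA12 and GUCY2C) and 0 lower. Of all genes tested there, 27.5% rose and 26.5% fell by the quasi-likelihood test of edgeR at an adjusted p under 0.05. The count of members lower in HT55 was also 0 at an unadjusted p under 0.05 and by DESeq2. In SW948, 3 of 8 were called higher (SLC26A6, SLC9A3R1 and CA2) and 4 lower (CFTR, SLC12A2, CA12 and GUCY2C), where 38.9% of all genes rose and 41.3% fell. Nothing is read from these counts, since the choice of members knew the contrasts. With plain library totals the median of all genes shifted from -0.02 to -0.18 in HT55 and from -0.03 to -0.35 in SW948 on the log2 scale. The whole-table split then moved from 3340 higher and 3213 lower to 2279 and 4710 in HT55, and from 4865 and 5165 to 3145 and 6832 in SW948. For the contrasts that follow it moved from 3292 higher and 3849 lower to 2295 and 4929 (difference between lines) and from 5457 and 5339 to 6539 and 4321 (SW948 over HT55 with DMSO).

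**Figure D2:**
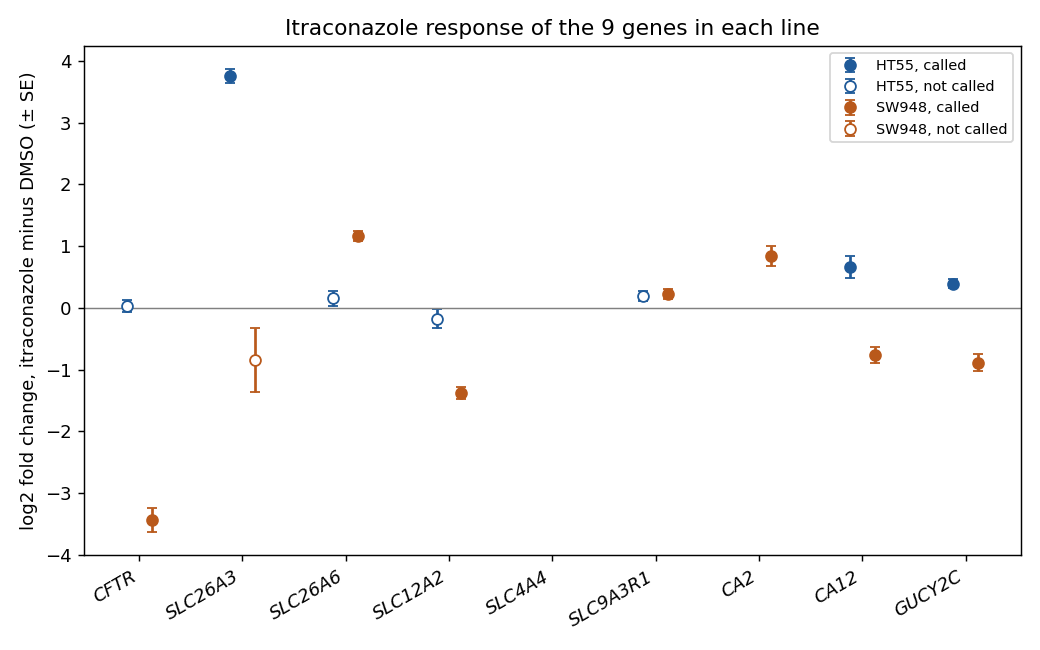
Log2 fold change of itraconazole over DMSO (y axis, bars are the SE) for each gene tested, in HT55 (blue) and SW948 (orange), with filled points for genes called and open points for genes not called. SLC26A3 stood at 3.76 in HT55 and CFTR at -3.44 in SW948, while CA12 and GUCY2C lay above 0 in HT55 and below 0 in SW948.

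The response of the lines was set side by side as SW948 minus HT55, on genes tested in both. The difference was -4.57 ± 0.52 for SLC26A3, and -3.60 without DMSO replicate 3 of SW948. It was -3.44 ± 0.25 for CFTR, -1.18 ± 0.20 for SLC12A2, -1.39 ± 0.24 for CA12 and -1.25 ± 0.17 for GUCY2C. SLC26A6 differed the other way, by 1.03 ± 0.15, and SLC9A3R1 by 0.06 ± 0.12. These differences are built from the responses known when the genes were selected, so they describe the members and nothing is read from a count of them. The limit to genes tested in both lines, which leaves out CA2, was decided after the values were seen.

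Without drug the lines already differed in 6 of 7 members with counts in both. This contrast was fitted on the 8 DMSO libraries, which are also the controls of the drug contrasts known when the members were chosen. Its values are therefore a description of the members, and the adjusted p is no independent test of them. Higher in HT55 were SLC26A3 (log2 difference, SW948 minus HT55, -6.63 ± 0.20, adjusted p = 6.56e-20 by edgeR), SLC12A2 (-2.40 ± 0.04, adjusted p = 3.32e-24), SLC26A6 (-1.24 ± 0.06, adjusted p = 1.89e-15) and GUCY2C (-1.16 ± 0.04, adjusted p = 2.66e-18). For SLC26A3 the value was -7.60 without DMSO replicate 3 of SW948. Higher in SW948 were CFTR (2.36 ± 0.06, adjusted p = 1.66e-21) and CA12 (0.84 ± 0.05, adjusted p = 2.18e-13). CA2 passed the filter only through SW948 and is given without an adjusted p. It was at least 63.4-fold higher there when 3 counts over the 4 HT55 libraries are taken as the floor. SLC9A3R1 missed the threshold at -0.10 ± 0.06 (adjusted p = 0.1004) and passed it at -0.17 without DMSO replicate 3 of SW948. These 4 members higher in HT55 and 2 higher in SW948 stand beside 41.6% of 12820 genes higher in HT55 and 42.6% higher in SW948.

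Levels of different genes were compared per kb of exon. In HT55 with DMSO SLC26A3 led at 162 CPM per kb, followed by SLC12A2 (60.3), GUCY2C (60.0) and SLC9A3R1 (53.8), and of those SLC12A2 and GUCY2C lay within their spread. In HT55 with itraconazole SLC26A3 stood at 2196 CPM per kb, with GUCY2C next at 78.9. In SW948 with DMSO SLC9A3R1 led at 50.1 CPM per kb, followed by GUCY2C at 26.7, CA12 at 11.8 and SLC12A2 at 11.4, the last pair again too close for an order. The merged exons of CFTR are 16821 bases long and its longest transcript 6223 bases. It stood there at 6.80 CPM per kb by the first length and 18.4 by the second. By longest transcript SLC12A2 stood there at 17.6 and CA12 at 13.5. In HT55 with DMSO SLC12A2 then stood at 93.4 and GUCY2C at 65.2, so both close pairs hold for merged exons only. The ratio of SLC26A3 to CFTR per kb was 116 to 134 in the HT55 libraries with DMSO and 1463 to 1806 with itraconazole. In SW948 it was 0.0936 to 0.582 with DMSO and 0.995 to 2.32 with itraconazole. By longest transcript it was 50.3 to 58.3 and 635 to 784 in HT55, and 0.0407 to 0.253 and 0.432 to 1.005 in SW948, so that whether it passed 1 in SW948 with itraconazole depends on the length used. Together the 9 genes took 0.168% to 0.182% of gene counts in HT55 with DMSO and 0.697% to 0.904% with itraconazole, and without SLC26A3 0.115% to 0.12% and 0.0945% to 0.128%. In SW948 they took 0.0659% to 0.0729% with DMSO and 0.0309% to 0.0428% with itraconazole.

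**Figure D3:**
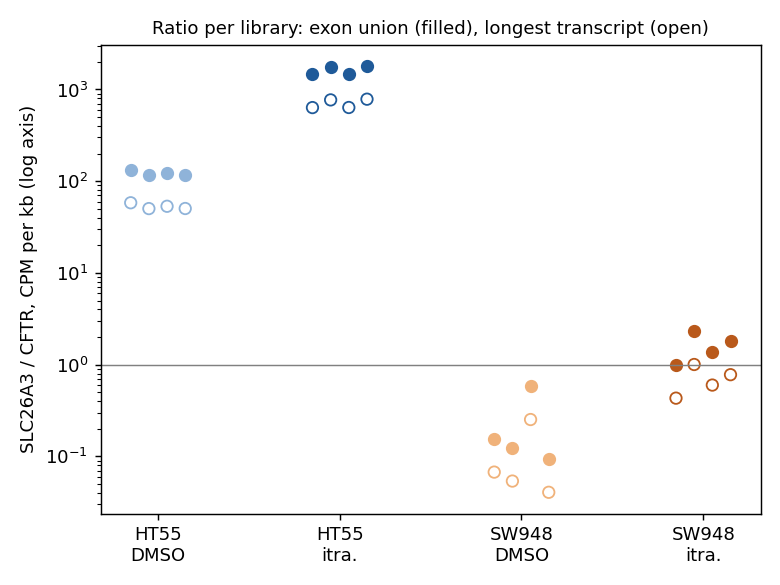
Ratio of SLC26A3 to CFTR in CPM per kb (logarithmic y axis) in each library by line and treatment, with merged exon length (filled) and longest transcript (open). All HT55 libraries lay above 1 and all SW948 libraries with DMSO below 1.

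Levels across the 16 libraries were most like SLC26A3 in SGPP2, a sphingosine phosphate phosphatase (Pearson r = 0.995 of log2 CPM), then NEO1, CNPY3, GALNT2 and FOXN3. They were most like CFTR in C6orf89 (r = 0.987), then MAVS, SDAD1, COG2 and GCDH. Both lists come from 9099 protein-coding genes, and the 16 points fall into 4 groups. SGPP2 went from 113 to 183 CPM in HT55 (log2 fold change 0.68), against 3.76 for SLC26A3.

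Another 71 genes of ion transport and its control, listed from general knowledge with these data already known, were put through the same fits. Their counts, medians and adjusted p are therefore a description as well and no independent test of the list. In HT55, 48 passed the filter, of which 27 were higher and 5 lower with itraconazole (8 lower without treated replicate 3), with a median log2 fold change of 0.42 against -0.02 for all genes, of which 27.5% rose and 26.5% fell. In SW948, 50 passed, 25 higher and 14 lower, with a median of 0.28 against -0.03 for all genes, of which 38.9% rose and 41.3% fell. With plain library totals the split in SW948 turned to 16 higher and 21 lower. All 7 cation cotransporters and sodium and hydrogen exchangers tested in HT55 were called, 6 of them higher. In SW948 all 6 tested were called, 5 of them higher. The 4 chloride channels tested in HT55 were also all called, 3 of them higher, and of 2 carbonic anhydrases 0 were called. SLC9A3, the apical sodium and hydrogen exchanger that works beside SLC26A3 in absorption, rose in HT55 from 3.37 ± 0.30 to 10.1 ± 1.88 CPM (log2 fold change 1.57 ± 0.17, adjusted p = 4.86e-05). In SW948 with DMSO it was at 0.0593 CPM, and its response there was not tested. PDZK1, an apical scaffold, rose in HT55 by 1.93 ± 0.41 (adjusted p = 0.00272), from 2.25 to 8.66 CPM. In SW948 it went from 0.825 to 1.33 CPM and was not called, and neither was its difference of response between the lines. CLCN2, a chloride channel, fell in HT55 by 0.44 ± 0.08 (adjusted p = 0.00115), and so did ABCC4, a cyclic nucleotide exporter, by 0.74 ± 0.21 (adjusted p = 0.0112). In SW948 CLCN2 was also lower, with a log2 fold change of -0.87 ± 0.10 (adjusted p = 2.06e-06 by edgeR). The potassium channel subunit KCNE3, a partner of chloride secretion, fell in both lines, by 0.37 ± 0.10 in HT55 (adjusted p = 0.0079) and by 2.91 ± 0.17 in SW948 (adjusted p = 2.34e-09), where it went from 144 to 19.3 CPM. SLC9A8, another sodium and hydrogen exchanger, fell in SW948 by 1.83 ± 0.10 (adjusted p = 1.64e-09). In HT55 it was also lower, on groups that overlapped, with a log2 fold change of -0.45 ± 0.14 (adjusted p = 0.0197 by edgeR).

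SLC12A4 and SLC12A7, both potassium and chloride cotransporters, rose in both lines. In HT55 they rose by 0.70 ± 0.17 (adjusted p = 0.00622) and 0.61 ± 0.07 (adjusted p = 9.24e-05). In SW948 SLC12A4 rose by 1.23 ± 0.13 (adjusted p = 7.79e-07) and SLC12A7 by 1.11 ± 0.08 (adjusted p = 1.77e-08). Of 43 genes tested in both lines, 13 rose in both lines and 3 fell in both, where 19.9% and 19.5% of the 11448 genes tested in both did. Another 6 rose in HT55 but were lower with itraconazole in SW948, and 0 did the reverse, by edgeR or DESeq2 and also at an unadjusted p under 0.05, where 4.05% and 2.6% of all genes did. The 6 were ADCY6, CLCN3, FXYD3, SLC26A2, VIPR1 and WNK4. SLC26A2, a sulphate transporter of the same family as SLC26A3, rose by 1.40 ± 0.21 in HT55 (adjusted p = 0.000351) and fell by 1.77 ± 0.17 in SW948 (adjusted p = 3.64e-07). By the test of the difference itself, the response of 15 of the 43 was higher in SW948 and that of 17 lower, where 27.2% and 31.6% of all genes tested in both lines did so. Without that limit 16 and 18 of 55 did, where 53.9% of 13249 genes were called in either direction.

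**Figure D4:**
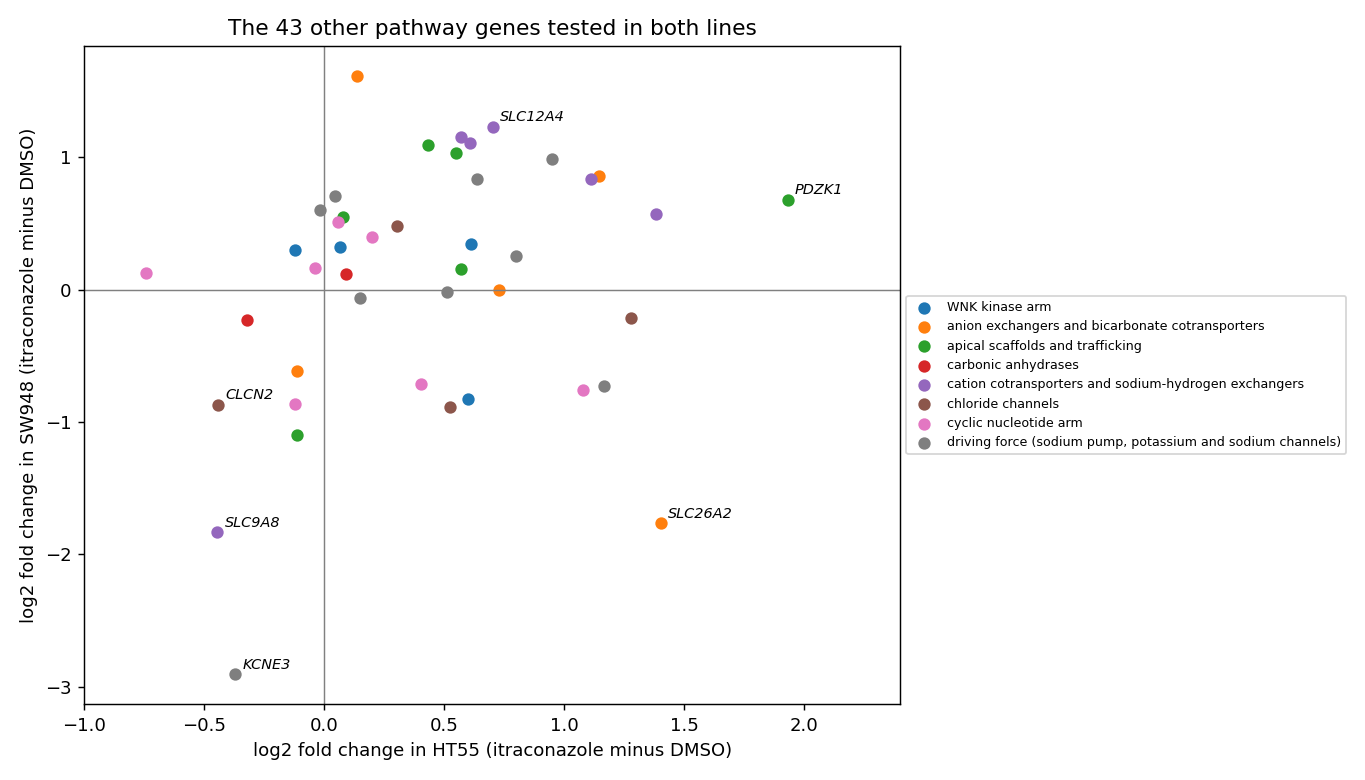
Log2 fold change of itraconazole over DMSO in HT55 (x axis) and SW948 (y axis) for the 43 listed genes tested in both lines, coloured by functional arm, without error bars. SLC26A2 lies at 1.40 and -1.77, and KCNE3 at -0.37 and -2.91.

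Between the DMSO groups, 28 of 53 listed genes were higher in SW948 and 20 higher in HT55, where 42.6% and 41.6% of all genes were. As with CA2, some listed genes passed the filter only through the line in which they are high. The direction of those was fixed beforehand, and they are included in these counts, so nothing is read from the counts. Low genes differed by more, and those named are the largest among genes whose mean log2 CPM reached 2. Of these ABCC4 (log2 difference 3.57 ± 0.07, adjusted p = 4.56e-23) and ANO1, a calcium gated chloride channel (2.39 ± 0.16, adjusted p = 9.02e-13), had the largest differences toward SW948. ATP1B1, the beta subunit of the sodium pump (-2.14 ± 0.04, adjusted p = 3.15e-23), and SCNN1A, a subunit of the epithelial sodium channel (-1.997 ± 0.05, adjusted p = 5.89e-21), had the largest toward HT55.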

How the data were processed

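Total RNA from 16 libraries was sequenced as single-end reads of 50 bp. The authors deposited raw read counts per gene, 1 file per library. Per the submitters' processing notes TopHat, HTSeq and DESeq were used on hg19, and the annotation release is not given in the sources used here. Of all reads 28.2% to 32.9% lay outside the gene counts (not unique, ambiguous or in no gene) and were left out. Of 54127 identifiers 47098 had a symbol in GENCODE v44lift37 or the RefSeq names, including 71 of 71 listed pathway genes and 39 of 41 markers.

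The members, lists and tests were chosen with earlier results of these data known. Counts were tested with edgeR 4.0.16 in R 4.3.3 (quasi-likelihood test, TMM, filterByExpr, Benjamini-Hochberg adjustment over all genes, called under 0.05), each line on its own 8 libraries, the difference between lines on 16 and the DMSO contrast on 8. The SE is the log2 fold change divided by the root of F. CPM used TMM-scaled totals over 16 libraries, and log2 CPM a prior count of 2. Of the pathway list, the text names, per line and direction, the 3 called genes of largest change (2 between DMSO groups) whose groups do not overlap and whose mean log2 CPM reaches 2, and the 5 genes most like SLC26A3 and CFTR whose mean reaches 3. The 6 genes that moved in opposite directions are named as a set. A gene that the rule names is counted but not reported here by name. The fit was tested on simulated data. DESeq2 1.42.0, other normalisations, filters and thresholds, and leaving out single libraries were tried. The limit to genes tested in both lines and the looser limits of the library check were set after values were seen. No pair of libraries of a group agreed within sampling noise. Intervals cover the spread between libraries, and the reads carry no molecular identifiers.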

Additional observations from a re-analysis of the deposited data

Results flagged for a closer look

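In 4 of 37 groups of 4 libraries, 1 library lay far from its fellows by Dixon's ratio of gap to range. Chance flags about 1 group in 20. SLC26A3 did so in SW948 with DMSO (replicate 3, ratio 0.885, 161 counts) and with itraconazole (replicate 3, ratio 0.928, 15 counts). SLC4A4 in SW948 with itraconazole (replicate 2) and CA2 in HT55 with itraconazole (replicate 2) had a ratio of 1.0 because a single count stood beside 3 libraries at 0.

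The difference of the itraconazole response between the lines (log2, SW948 minus HT55) is given as a description, with no test, for 6 members whose choice knew the responses: CFTR (-3.44), SLC26A3 (-4.57), SLC26A6 (1.03), SLC12A2 (-1.18), CA12 (-1.39) and GUCY2C (-1.25). Of the pathway genes named for the size of their change or of their difference between the DMSO groups, it was lower in SW948 for SLC26A2 (-3.14), KCNE3 (-2.51), ANO1 (-1.47), SLC9A8 (-1.36) and CLCN2 (-0.40), by the interaction test of edgeR. It was higher for ABCC4 (0.899), ATP1B1 (0.692), SCNN1A (0.652), SLC12A4 (0.563) and SLC12A7 (0.527). Of the genes named for opposite directions, which set the sign, it was also lower for FXYD3 (-1.865), VIPR1 (-1.80), WNK4 (-1.4), CLCN3 (-1.38) and ADCY6 (-1.09). SLC26A2 belongs to that set too. All these pathway genes were named on values of the same libraries, so their differences are a description and no independent test.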

How the results depend on the processing

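For 46 log2 fold changes of named genes, 795 of 830 alternatives kept direction and side of the threshold, 18 lost the call, 8 gained it and 9 turned direction. The reversals concern values near 0 or low counts, and their cause was not tested. With plain library totals CFTR in HT55 was -0.14, SLC26A6 in HT55 -0.0179, and SLC9A3R1 -0.11 in SW948, -0.14 for the difference between lines and 0.10 between the DMSO groups. Leaving out single libraries gave -0.01002 to 0.0843 for CFTR in HT55, -1.14 to 0.12 for SLC26A3 in SW948 and -0.00142 to 0.14 for the difference between lines of SLC9A3R1. Without a filter on low counts SLC26A3 in SW948 was called at -0.87.

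A minimum absolute log2 fold change of 1 left 1169 genes called in HT55, 4001 in SW948, 2760 for the difference between lines and 4153 between the DMSO groups. Of the pathway list it left 9 higher and 1 lower in HT55, 7 and 6 in SW948, 1 and 9 for the difference, and 18 and 8 between the DMSO groups. At an adjusted p under 0.01 the list kept 3 lower in HT55 and 8 higher for the difference. Plain totals gave 8 lower in HT55, 16 higher and 21 lower in SW948 and 8 higher for the difference. Without single libraries 4 to 8 of the list were lower in HT55, 8 without treated replicate 3.

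The order of the 4 group means was kept with plain totals for 5 of 9 members, and the order of members per kb with the longest transcript in 1 of 4 groups. Of the 10 genes most like SLC26A3 and CFTR, 0 stayed by Spearman's rho and 2 with plain totals.

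Same-numbered libraries were not treated as pairs. Their deviations correlated at -0.0249 to 0.116 in HT55 and -0.00348 to 0.104 in SW948. Replicate 3 in both lines and replicate 4 in SW948 were best with their own number, and the other replicates were not. Whether same-numbered libraries shared a culture was not tested. With the replicate number as a block, 6300 genes were called in HT55, 9973 in SW948, 7037 for the difference and 10827 between the DMSO groups, and SLC9A3R1 passed between the DMSO groups at -0.10.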
